A study of Mus musculus with 2 samples.

Results

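Mincle (Clec4e) and 6 related C-type lectin receptors, Clec4d, Clec4n, Clec4a1, Clec4a2, Clec4a3 and Clec7a, were followed across the cell types, macrophage states and hashtags of mouse visceral fat. The 7 genes were taken by name from a deposited count table of 30084 genes, and all 7 were in it. The cells came from the stromal vascular fraction of epididymal white adipose tissue, which holds the cells of fat other than its adipocytes. Mincle-deficient and wild-type males, all with a C57BL/6J background and all on a high-fat diet for 15 weeks, gave the suspensions, each of which was stained with a hashtag antibody and pooled into a transcript library with a matching hashtag library. The labels do not tie any hashtag to a genotype, and none gives the number of mice behind a hashtag or the part of Clec4e that was deleted. The genotypes were therefore not compared, no lean animals were included, and there was no replicate over which a test could be run. The 4 hashtags, A0309, A0310, A0311 and A0312, are given one by one, with no grouping.

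C-type lectin receptors read sugars and lipids on microbes and on dying cells. Mincle, which binds glycolipids, MCL (Clec4d), which forms a complex with Mincle, and Dectin-2 (Clec4n), which binds mannose-rich glycans, have no signalling motif of their own. They pair with the Fc receptor gamma chain (Fcer1g), which recruits the kinase Syk, and the signal then runs through the Card9, Bcl10 and Malt1 complex to inflammatory genes. Clec4a2 (DCIR) is an inhibitory receptor whose tail recruits phosphatases such as Ptpn6. Clec4a1 and Clec4a3 are close relatives of Clec4a2, also called Dcir4 and Dcir3, and Clec7a (Dectin-1) binds fungal beta-glucans and signals to Syk through a motif in its own tail. In fat, Mincle is known as a receptor of macrophages around dying adipocytes.

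On mouse chromosome 6, build GRCm38, 6 of the genes sit in a row of 368.023 kb. In the GENCODE annotation, Clec4a1 (chr6:122921848-122934619), Clec4a3 (chr6:122952515-122969875), Clec4a2 (chr6:123106428-123143999), Clec4n (chr6:123229843-123247021) and Clec4d (chr6:123262111-123275265) lie on the plus strand. Clec4e (chr6:123281789-123289870) lies on the minus strand, with its end 6.523 kb from the end of Clec4d. Clec7a (chr6:129461591-129472779) is on the minus strand 6.17 Mb away, and the annotation used calls it a polymorphic pseudogene. The nearest relatives in the row, Clec4a4, Clec4b1 and Clec4b2, were measured as other lectins. In annotated transcripts, 6.15% of the stretches of 50 bases in Clec4a2 also occur in another gene (3.85% in Clec4a4), so a small part of its counts can be shared with these copies. None of the 50-base stretches of the other 6 genes was found in another of the 7 or in Clec4a4, Clec4b1 or Clec4b2.

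RefSeq promoter windows of the same build, from 250 bases before to 50 bases after an annotated start, were at hand for 6 of the 7 genes, all but Clec4n. The windows of Clec4e and Clec4d are shown because these neighbours differed in where they were highest, and that of Clec4a1 because its level ran beside that of Clec4a3. Capitals mark the letters matching any of 5 motifs, searched on both strands. The motifs were the ETS core bound by PU.1 (GAGGAA), a C/EBP site (TTGCNNAA), an AP-1 site (TGANTCA), an antioxidant response element (TGACNNNGC) and the interferon-stimulated response element.
Clec4e, chr6:123289822-123290121, minus strand: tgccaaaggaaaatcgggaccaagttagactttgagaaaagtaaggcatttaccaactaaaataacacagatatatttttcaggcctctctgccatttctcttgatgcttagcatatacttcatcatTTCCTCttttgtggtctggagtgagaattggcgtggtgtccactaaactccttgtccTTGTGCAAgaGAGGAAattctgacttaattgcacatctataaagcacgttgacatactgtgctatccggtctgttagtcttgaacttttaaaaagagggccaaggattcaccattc
Clec4d, chr6:123261857-123262156, plus strand: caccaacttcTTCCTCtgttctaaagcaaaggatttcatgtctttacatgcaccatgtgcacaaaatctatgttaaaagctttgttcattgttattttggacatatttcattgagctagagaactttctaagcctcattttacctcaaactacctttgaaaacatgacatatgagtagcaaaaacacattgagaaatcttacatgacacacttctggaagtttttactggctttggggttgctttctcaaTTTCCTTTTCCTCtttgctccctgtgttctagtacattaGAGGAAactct
Clec4a1, chr6:122921598-122921897, plus strand: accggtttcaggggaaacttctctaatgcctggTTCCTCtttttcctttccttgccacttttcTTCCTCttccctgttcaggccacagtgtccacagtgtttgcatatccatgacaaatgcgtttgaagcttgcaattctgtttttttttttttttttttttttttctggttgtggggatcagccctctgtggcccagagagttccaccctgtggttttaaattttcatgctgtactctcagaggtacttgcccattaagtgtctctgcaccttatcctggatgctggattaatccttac
The Clec4e window holds GAGGAA letters at positions -123 and -56 and C/EBP letters at -66, counted from the annotated start. In the Clec4d window, GAGGAA letters begin at -240, 8 and 40, and the interferon-stimulated letters begin at 1 and overlap the match at 8. The Clec4a1 window holds GAGGAA letters at -217 and -187. Of the windows not shown, that of Clec4a2 has AP-1 letters at 32, both windows of Clec7a have GAGGAA letters, and 1 of the windows of Clec4a3 has them. Among all 32851 windows of this length, 28.3% hold the GAGGAA letters, 10.8% the C/EBP letters, 7.81% the AP-1 letters, 12.4% the antioxidant letters and 3.44% the interferon-stimulated letters. A match of letters describes the window only.

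The 11281 cells kept had a median of 35087 counts and 4521 genes. Clusters were made without the 7 genes and named from marker genes. They gave 7464 macrophage-like cells (66.2% of those kept), 119 monocyte-like, 264 dendritic-cell-like, 647 fibroblast-like and 785 endothelial-like cells, with small T-cell-like, NK-like, mural, B-cell-like and mesothelial classes. A cluster of 646 cells led by Retnla, Ear2, Ccr2 and Ccl24 carried macrophage and monocyte markers together and was left unnamed. The 8 monocyte markers were all above 20 CPM in the monocyte-like class, summing to 5134 counts per 1000000 (CPM) in that class and 277 CPM in macrophage-like cells. Their sum was 2281 CPM in the Ccr2-led cluster and 5333 CPM in fibroblast-like cells, where 3 of the 8 were above 20 CPM and Chil3 was at 0. The macrophage markers summed to 2575 CPM in the monocyte-like class and 9055 CPM in macrophage-like cells. Levels below are CPM of all counts of the cells in a class, with 95% exact Poisson intervals that cover counting error only. Counts are not scaled by gene length, so levels are compared between cells for 1 gene and not between genes.

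Clec4e, the gene deleted in the Mincle-deficient mice, differed widely between hashtags in every myeloid class in which it was abundant. In macrophage-like cells its level was 9.10 CPM (interval 8.38 to 9.87) with hashtag A0309, 13.1 CPM (12.3 to 13.9) with A0310, 0.685 CPM (0.529 to 0.873) with A0311 and 0.464 CPM (0.354 to 0.598) with A0312. In monocyte-like cells it stood at 175 CPM (142 to 214), 197 CPM (151 to 253), 0 CPM (up to 10.7) and 1.5 CPM (0.0380 to 8.37) in the same order of hashtags. The last of these values is 1 count. In the Ccr2-led cluster it was at 52.2 CPM (47.5 to 57.2), 83.0 CPM (73.9 to 93.0), 2.16 CPM (1.03 to 3.97) and 0 CPM (up to 0.721). In each of these 3 classes the intervals of A0309 and of A0310 lay above those of A0311 and of A0312, with no overlap. Dendritic-cell-like cells ran in another order, with 12.9 CPM for A0309, 3.23 CPM for A0310, 0 CPM (up to 3.47) for A0311 and 9.78 CPM (5.70 to 15.7) for A0312. The A0312 value there is 17 counts from 67 cells. Which genotype any of these cells had cannot be told from the labels. Since all 4 hashtags are pooled in the levels that follow, those of Clec4e mix hashtags that differ this much.

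**Figure D1:**
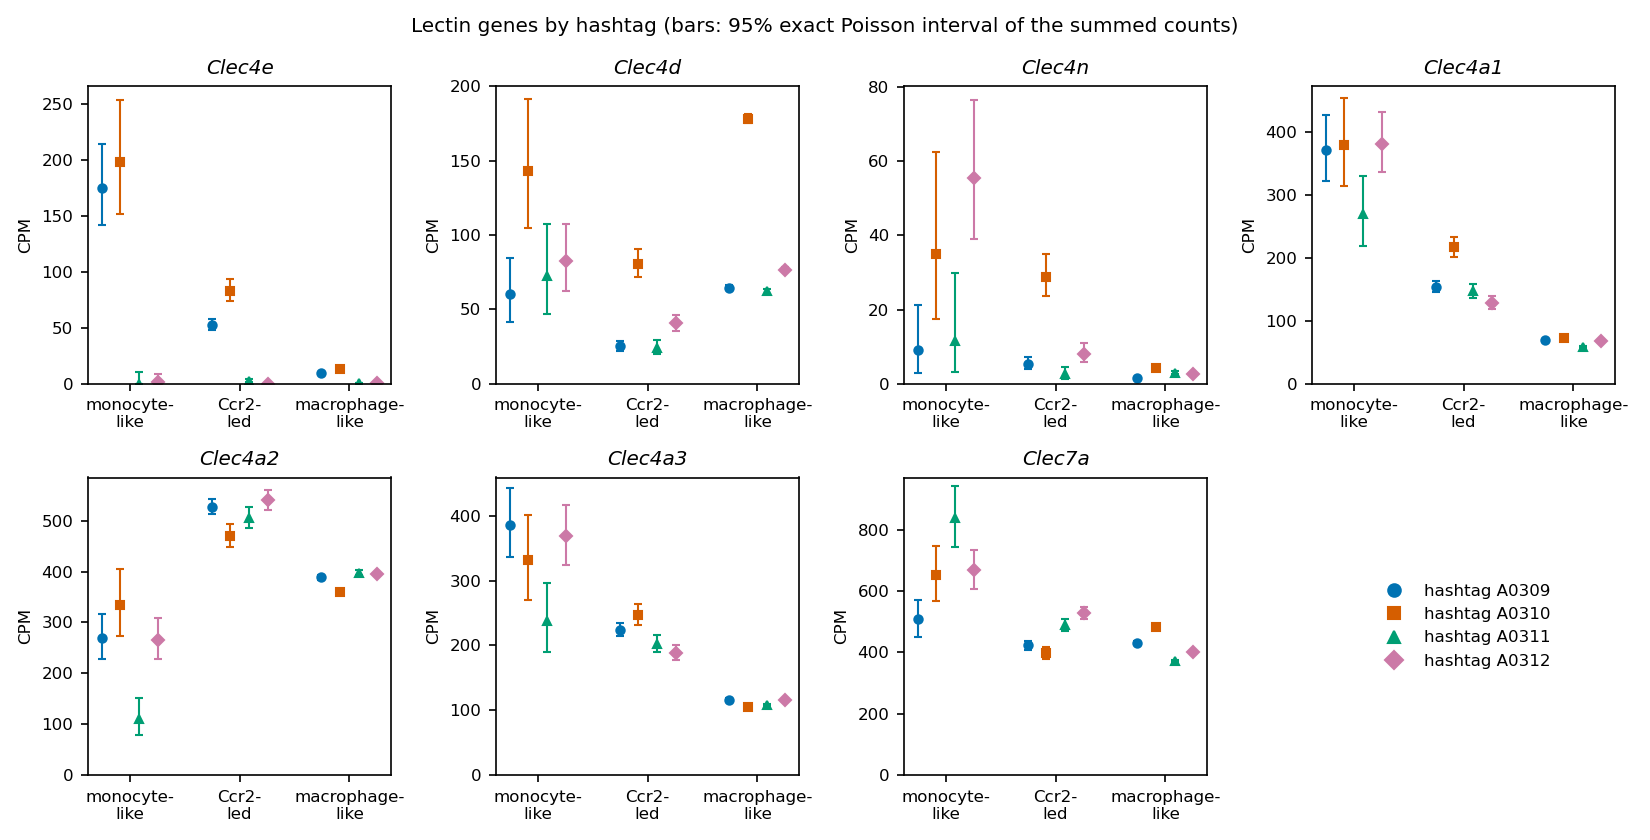
CPM of each of the 7 receptors (panels) in monocyte-like, Ccr2-led and macrophage-like cells of each hashtag, with bars for the 95% exact Poisson interval. Clec4e lies at or below 2.16 CPM in A0311 and A0312 and between 9.10 and 197 CPM in A0309 and A0310, while Clec4a2 in macrophage-like cells lies between 360 and 398 CPM in every hashtag.

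Among the 9 classes ranked (the named classes of enough cells and the Ccr2-led cluster), each receptor was highest in a myeloid one. In the pool, Clec4e stood at 84.9 CPM (72.2 to 99.2) in monocyte-like cells, 34.7 CPM (32.3 to 37.2) in the Ccr2-led cluster, 7.66 CPM in the dendritic-cell-like class and 4.83 CPM (4.61 to 5.06) in macrophage-like cells. Fibroblast-like cells had 0.156 CPM and endothelial-like cells 0.391 CPM of it. Clec4d, its partner, was instead highest in macrophage-like cells at 93.6 CPM (92.6 to 94.5), beside 84.4 CPM (71.7 to 98.6) in monocyte-like cells, 37.5 CPM in the Ccr2-led cluster and 13.2 CPM in dendritic-cell-like cells. The intervals of the first 2 of these classes overlap, so their order is not resolved. Clec4n reached 30.4 CPM (23.1 to 39.4) in monocyte-like cells, 9.21 CPM (7.99 to 10.6) in the Ccr2-led cluster, 2.91 CPM in the dendritic-cell-like class and 2.89 CPM (2.72 to 3.07) in macrophage-like ones, and endothelial-like cells had no count (up to 0.289 CPM). All 19 counts of Clec4n in the dendritic-cell-like class came from A0309 (8.73 CPM), and A0310, A0311 and A0312 had none there (up to 2.38, 3.47 and 2.12 CPM), against 1.48, 4.32, 2.94 and 2.63 CPM in macrophage-like cells of the 4 hashtags.

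Among the DCIR genes, Clec4a1 was at 358 CPM (331 to 386) in monocyte-like cells, 157 CPM in the Ccr2-led cluster, 66.3 CPM in macrophage-like cells and 40.8 CPM in dendritic-cell-like cells. Clec4a3 followed the same order, with 343, 215, 112 and 49.6 CPM. The inhibitory receptor Clec4a2 did not, since it was highest in the Ccr2-led cluster at 517 CPM (507 to 526) and next in macrophage-like cells at 387 CPM (385 to 389), beside 250 CPM (228 to 274) in monocyte-like and 92.5 CPM in dendritic-cell-like cells. Clec7a was at 650 CPM (614 to 688) in monocyte-like cells, 457 CPM in the Ccr2-led cluster, 417 CPM in macrophage-like cells and 183 CPM in dendritic-cell-like cells. Among the other named classes Clec7a was highest in T-cell-like cells, at 30.7 CPM, and Clec4a2 and Clec4d in the 75 mural cells, at 21.1 and 8.45 CPM. Smaller clusters that met no name were not ranked, and in one of 35 cells Clec4a2 was at 373 CPM and Clec4d at 29.4 CPM.

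**Figure D2:**
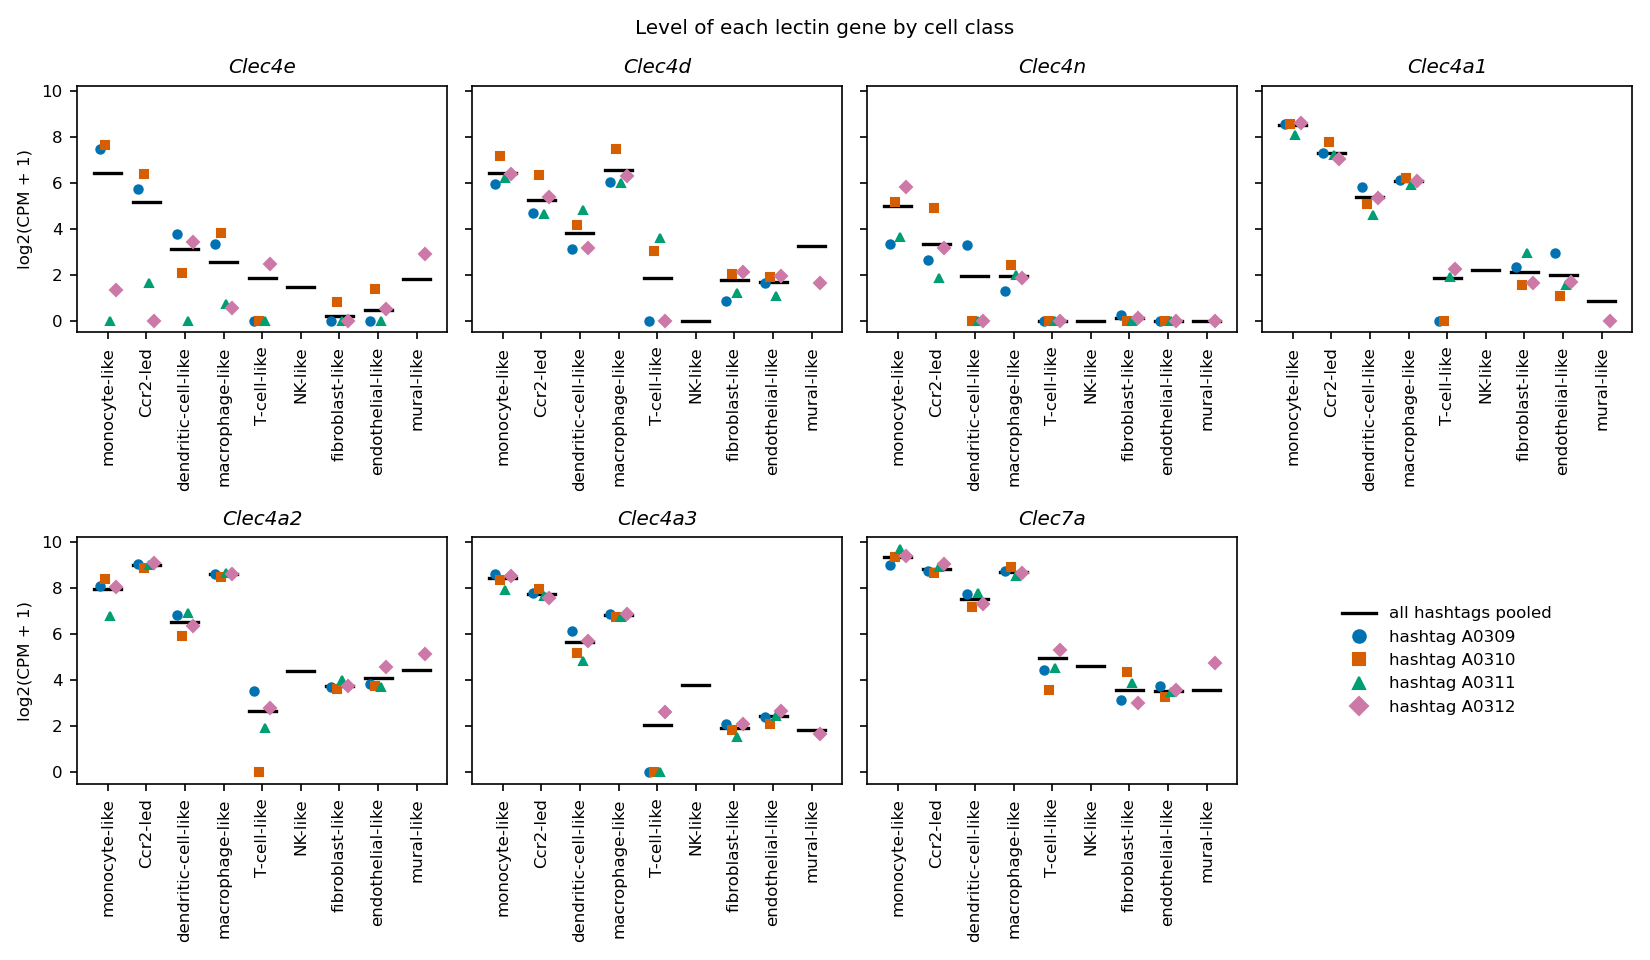
Level of each receptor, as log2(CPM + 1), in each cell class, with 1 point per hashtag holding at least 20 cells of the class and a black line for the pool. The pool lines of 5 receptors are highest in monocyte-like cells, that of Clec4d in macrophage-like cells and that of Clec4a2 in the Ccr2-led cluster.

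Macrophage-like cells were compared with fibroblast-like cells by a rule of size, since no test was possible: a gene was called where the log2 ratio of CPM + 1 reached 1 in size, with 1 sign, in the pool and in each hashtag holding at least 20 cells of both classes. Genes at 5 CPM or more in either class were considered. Under this rule, 12.8% of 12053 genes were called higher in macrophage-like cells, and so were all 5 of the receptors that met the minimum. Their log2 ratios were 5.11 for Clec7a (417 CPM in macrophage-like cells, 11.1 CPM in fibroblast-like cells), 4.87 for Clec4a3 (112 and 2.84 CPM), 4.83 for Clec4a2 (387 and 12.6 CPM), 4.79 for Clec4d (93.6 and 2.41 CPM) and 3.94 for Clec4a1 (66.3 and 3.38 CPM). Clec4e and Clec4n missed the minimum at 4.83 and 2.89 CPM in macrophage-like cells, with log2 ratios of 2.34 and 1.85, and a gene low in both classes could not be called. The smallest ratio of a called receptor in any hashtag was 2.97, for Clec4a1.

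The monocyte-like class differed from macrophage-like cells in 3 receptors. Clec4n, Clec4a1 and Clec4a3 were called higher, with log2 ratios of 3.02, 2.41 and 1.61, and none was called lower, where 5.82% of 11410 genes were called higher and 6.57% lower. Clec4n by hashtag was at 9.11, 35.02, 11.6 and 55.6 CPM in monocyte-like cells of A0309, A0310, A0311 and A0312, against 1.48, 4.32, 2.94 and 2.63 CPM in macrophage-like cells. Clec4a1 was at 372, 379, 270 and 382 CPM in monocyte-like cells, against 68.6, 72.4, 58.5 and 67.0 CPM in macrophage-like cells. For both genes every monocyte-like value exceeded every macrophage-like value. Clec4a3 likewise was at 386, 331, 238 and 368 CPM against 116, 105, 108 and 116 CPM.

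Clec4e had the largest pooled ratio, a log2 ratio of 3.88, and yet was not called, because A0311 and A0312 both missed the rule. The ratio was -0.75 in A0311, whose monocyte-like cells had no count of it. In A0312, whose monocyte-like cells had 1 count of it, the ratio was positive but below 1. The largest Clec4e ratio in a hashtag was 4.12. Clec4d (-0.15), Clec4a2 (-0.63) and Clec7a (0.64) did not meet the rule either, and Clec4a2 was lower in monocyte-like cells in every hashtag, by log2 ratios from -1.84 to -0.11. The median of the 7 receptors was 1.61, beside 0.18 over all genes considered. Only Clec4a1 was called in every alternative processing that gave a monocyte-like class: with cells weighted equally Clec4n (2.56) and Clec4a3 (1.39) lost the call. At a clustering resolution of 0.5, Clec4e was called higher (2.79), Clec4d was called lower (-3.37) and Clec4a3 lost its call (0.95).

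Each hashtag had between 20 and 43 monocyte-like cells, and the class was not uniform. Of 6 neutrophil markers measured, the sum was 471 CPM in the monocyte-like class and 22.4 CPM in macrophage-like cells, and by hashtag it was 166, 153, 206 and 1010 CPM in monocyte-like cells. S100a9 was at 754 CPM in monocyte-like cells of A0312 and at 0 in those of the other hashtags, and Retnlg was at 34.6 CPM in those of A0312 and at 0 elsewhere. Mmp9 likewise was at 27.0 CPM in those of A0312 and at 0 elsewhere. Csf3r, which monocytes also express, was at 128, 137, 142 and 146 CPM. Cxcr2 was at 25.5, 9.55, 37.7 and 37.6 CPM and Ly6g at 12.8, 6.37, 26.1 and 10.5 CPM, so neither was highest in A0312. Without A0312, Clec4n, Clec4a1 and Clec4a3 were still called, with a log2 ratio of 2.13 for Clec4n. The A0312 cells also had the highest Clec4n, and the part of the neutrophil markers in that value was not tested.

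In dendritic-cell-like cells Clec4d, Clec4a2, Clec7a, Clec4a3 and Clec4a1 were lower in the pool than in macrophage-like cells, and Clec4e and Clec4n were not. Clec4d and Clec4a2 were called lower, with log2 ratios of -2.74 and -2.05, and none was called higher, where 5.99% of 11466 genes were called lower and 7.28% higher. Clec4d was at 7.81, 16.8, 27.3 and 8.05 CPM in dendritic-cell-like cells of the 4 hashtags, against 64.6, 178, 62.0 and 76.6 CPM in macrophage-like cells. The groups did not overlap. Clec7a (-1.19), Clec4a3 (-1.15) and Clec4a1 (-0.69) were lower in the pool without meeting the rule in every hashtag, Clec4e stood at 0.57, and Clec4n was under the minimum. The count of 2 depends on the cells used: with the hashtags that the authors wrote into the cell names, 5 receptors were called lower, and without A0309 or A0311 there were 3.

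**Figure D3:**
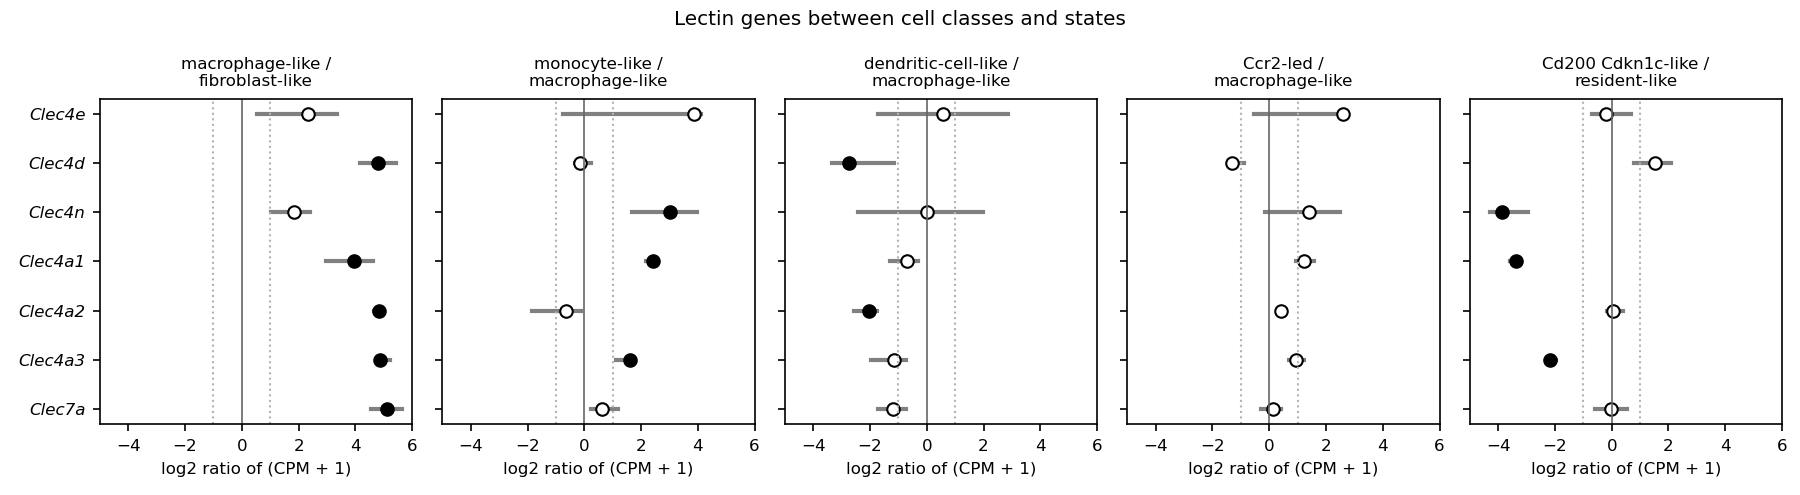
Log2 ratio of CPM + 1 of each receptor in each comparison of classes or states, the first-named class over the second. Filled circles meet the rule of size, open circles do not, grey bars span the hashtags with enough cells, and dotted lines mark a ratio of 1 in either direction. All 5 receptors considered are called higher in macrophage-like over fibroblast-like cells, and the bar of Clec4e in monocyte-like over macrophage-like cells runs from -0.75 to 4.12.

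In the pool, the Ccr2-led cluster lay between the monocyte-like and macrophage-like classes for Clec4e, Clec4n, Clec4a1, Clec4a3 and Clec7a. Only Clec4a1 and Clec4a3 kept this place in every hashtag. Clec7a was below macrophage-like cells in A0309 (423 against 431 CPM) and A0310 (398 against 484 CPM). Clec4n was below them in A0311 (2.59 against 2.94 CPM), and Clec4e lay outside both classes in A0311 and A0312. The comparison of the Ccr2-led cluster with macrophage-like cells was added after the data were seen. No receptor was called in it, where 1.5% of 10613 genes were called higher and 2.09% lower. Clec4e had a log2 ratio of 2.61, with a range over hashtags from -0.55 to 2.58. Its pooled ratio is thus above that of every hashtag, and the classes held the hashtags in different shares. A0309 gave 256 of the 646 Ccr2-led cells and 1252 of the 7464 macrophage-like cells. Clec4n had a log2 ratio of 1.39 and Clec4a1 one of 1.23. Clec4d pointed the other way, at -1.30, with a range from -1.33 to -0.91, so that A0312 was the hashtag in which it missed the rule. By hashtag, Clec4d was at 25.1, 80.5, 24.1 and 40.4 CPM in the Ccr2-led cluster. Clec4a2 was the most even, at 527, 470, 506 and 540 CPM there. Without A0312, Clec4d (-1.46) was called lower and Clec4a1 (1.31) higher, and without A0311, Clec4n (1.63) was called higher.

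Macrophage-like cells fell into 13 sub-clusters, also made without the 7 genes. Of the 7, Clec4n varied the most among them, 76.6 times between the highest and the lowest sub-cluster, and Clec4a2 the least, 2.07 times. Clec4e spanned 23.2 times, Clec4d 22.8, Clec4a1 11.5, Clec4a3 5.76 and Clec7a 4.64. Clec4d ran against the DCIR genes. Over the 13 sub-clusters, which share 1 library, Pearson's r of log2(CPM + 1) was -0.75 for Clec4d with Clec4a2, -0.61 with Clec4a3 and -0.57 with Clec4a1. Clec4a1 and Clec4a3 moved closely together (0.99), as did Clec4n and Clec4a1 (0.96), while Clec4e and Clec4d, the partners, had an r of 0.27.

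The highest Clec4d was in 268 cells led by Serpinb9b, Cd5l, Gclm and Srxn1, where it stood at 432 CPM. Gclm and Srxn1 are genes of the antioxidant response. By hashtag it was at 179 CPM in the 15 cells of A0309, 526 CPM in the 167 cells of A0310, 154 CPM in the 25 cells of A0311 and 326 CPM in the 61 cells of A0312. In every hashtag this was the sub-cluster with the highest Clec4d, and A0310 gave most of its cells. Clec4e in the same cells was at 4.34, 6.83, 0 and 0 CPM by hashtag, against 9.10, 13.1, 0.685 and 0.464 CPM over all macrophage-like cells. Second for Clec4d in the pool were 831 cells led by Cd200, Mfge8, Cdkn1c and Mmp12 at 131 CPM, with 99.2, 243, 89.0 and 105 CPM by hashtag. Only in A0310 were they second. Above them stood the Cdc20-led dividing cells in A0309 (109 CPM) and the histone-led dividing cells in A0311 (97.7 CPM). In A0312 the cells led by Gm4610 and Arg1 did (107 CPM). The lowest Clec4d was in cells led by Plbd1, Ccr2 and Mgl2, at 18.9 CPM.

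The DCIR genes were each highest in a sub-cluster high in MHC class II genes, though Clec4a2 was at 317 CPM, the 11th of 13, in the Cd209f-led cells that also carry this name. In 1570 cells led by Egr3 and Il1b, with Cd74 (the class II invariant chain) at 11598 CPM, Clec4a1 was at 190 CPM, Clec4a2 at 555 CPM, Clec4a3 at 247 CPM and Clec7a at 830 CPM, the highest sub-cluster for Clec7a. The 630 cells led by Plbd1, Ccr2 and Mgl2 had Cd74 at 11470 CPM. In them Clec4a1 was at 229 CPM, Clec4a2 at 564 CPM and Clec4a3 at 308.4 CPM, the highest sub-cluster of the pool for each. The Clec4a1 interval (221 to 236) overlaps that of the Cd209f-led cells (203 to 230). These were higher in A0311 (214 against 199 CPM) and A0312 (258 against 212 CPM), and lower in A0309 and A0310. The Clec4a2 interval (553 to 576) overlaps that of the Egr3-led cells (548 to 561). The order for Clec4a1 and Clec4a2 is thus not resolved. Clec4n was highest in 202 cells led by Cd209f and Lyve1, which are markers of resident tissue macrophages, at 18.9 CPM, and next in the Plbd1-led cells at 16.3 CPM. The Cd209f-led cells had 10.6, 28.1, 28.8 and 12.5 CPM of Clec4n by hashtag, and the Plbd1-led cells 8.10, 42.7, 20.1 and 9.32 CPM, so the order of these sub-clusters depends on the hashtag. Clec4n was lowest in the Pgm5-led cells at 0.247 CPM, the Cd200-led cells at 0.361 CPM and the cells led by Gm4610 and Arg1 at 0.403 CPM, with the dividing cells led by Ung and Hells next at 0.432 CPM.

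Clec4e was highest in 90 cells led by Cxcl9 and interferon-induced Ifit genes, at 17.4 CPM (13.2 to 22.4). That level came from few cells: 38.8 CPM was 13 counts in the 6 cells of A0309, and 68.3 CPM was 45 counts in the 18 cells of A0310, while A0311 had none and A0312 had 0.700 CPM. The histone-led dividing cells came next at 9.01 CPM. Clec4e was lowest in the Plbd1-led cells, at 0.749 CPM, although these cells had the highest pooled levels of its DCIR neighbours. Of the 7 receptors, 6 had their highest level in a sub-cluster named for MHC class II, all but Clec4d. With the hashtags written into the cell names by the authors, and so other clusters, there were 3. The Egr3-led, Plbd1-led, Cxcl9-led and Cd209f-led cells all carry that name. The share of all genes that are highest in such a sub-cluster is not given, so the count has no background.

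**Figure D4:**
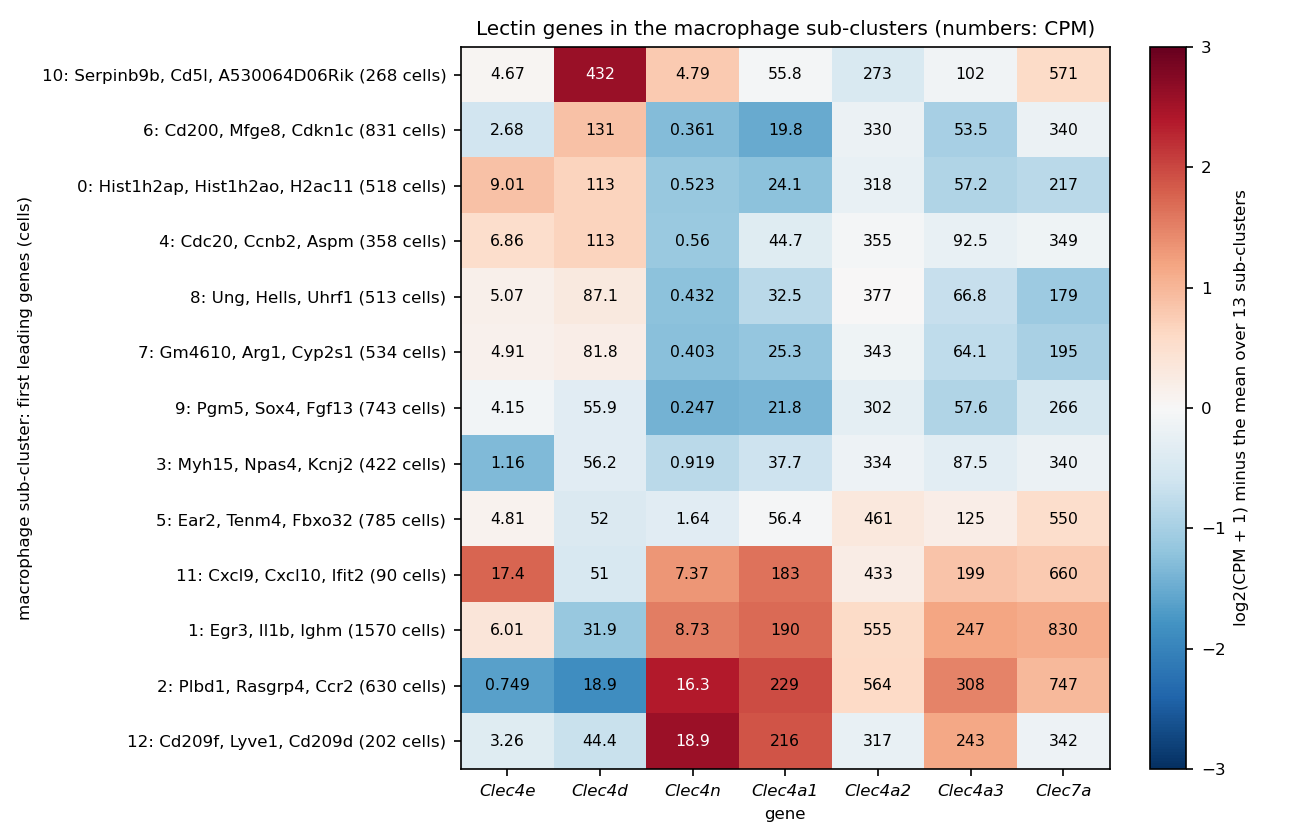
Level of the 7 receptors in 13 macrophage sub-clusters named by leading genes. Colours give log2(CPM + 1) minus the mean over the sub-clusters and printed values are CPM. Clec4d reaches 432 CPM in the Serpinb9b-led cells, and Clec4a1 and Clec4a3 reach 229 and 308.4 CPM in the Plbd1-led cells.

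A comparison of lipid-associated with resident macrophages had been planned. No sub-cluster met the markers for the lipid-associated name, and the Cd200- and Cdkn1c-led cells took its place after the data were seen, set against the Cd209f- and Lyve1-led cells. Clec4n, Clec4a1 and Clec4a3 were called lower in the Cd200-led cells, with log2 ratios of -3.87, -3.39 and -2.16, and none was called higher, where 6.32% of 10844 genes were called lower and 3.32% higher. The median of all these genes was -0.22. Clec4a1 was at 18.5, 20.1, 19.1 and 20.6 CPM in the Cd200-led cells by hashtag, against 182, 210, 214 and 258 CPM in the Cd209f-led cells. Clec4a3 was at 50.2, 48.4, 55.5 and 56.7 CPM against 256, 224, 259 and 226 CPM. Both genes showed little spread between hashtags within a state and no overlap between the states. Clec4d was higher in the Cd200-led cells in the pool, with a log2 ratio of 1.54, but it missed the rule in A0311, with 89.0 CPM in the Cd200-led cells against 51.5 CPM in the Cd209f-led cells. It was called without A0311, at 1.76, and at a clustering resolution of 0.5, at 2.0. Clec4a2 (0.06) and Clec7a (-0.01) were level, and Clec4e was under the minimum. The Cd200-led cells had a median of 68751 counts and the Cd209f-led cells 21081.

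After Clec4e, the receptors that varied most between hashtags in macrophage-like cells were Clec4d and Clec4n. Clec4d was at 64.6 CPM with A0309, 178 CPM with A0310, 62.0 CPM with A0311 and 76.6 CPM with A0312, so that A0310 stood 2.33 times above the next hashtag. Of the 10448 genes at 5 CPM or more in at least 1 hashtag, 0.144% were higher in A0310 than in each of the other hashtags by a log2 ratio of 1. For A0309, A0311 and A0312 the shares were 0.0766%, 0.0287% and 0.00957%, and no receptor was among those genes. The log2 ratio of the highest to the lowest hashtag was 3.26 for Clec4e, 1.51 for Clec4d and 1.10 for Clec4n, and 99.9%, 99.5% and 99.0% of the genes had a smaller one. It was 0.38 for Clec7a, 0.30 for Clec4a1, and 0.15 for both Clec4a3 and Clec4a2, beside a median of 0.19 over all genes. Clec4a2 and Clec4a3 thus differed less between hashtags than the median gene did, and the neighbours Clec4n, Clec4d and Clec4e more. Clec4n reached at most 4.32 CPM in a hashtag, however, and was under the minimum of 5 CPM. It could therefore not be called here, and it is ranked against genes of higher level.

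The hashtags held the sub-clusters in different shares, and 167 of the 268 Serpinb9b-led cells, those highest in Clec4d, carried A0310. Of 11 sub-clusters with at least 20 cells of every hashtag, A0310 had the highest Clec4d in 10 and the highest Clec4e in 7, with A0309 highest for Clec4e in the other 4. The mean of Clec4d over these sub-clusters, each weighted equally, was 56.6 CPM in A0309, 111 CPM in A0310, 57.3 CPM in A0311 and 68.4 CPM in A0312. The mean of Clec4e was 8.00, 12.9, 0.510 and 0.383 CPM in the same order, with ranges of 1.74 to 20.3 CPM in A0309, 1.42 to 32.4 CPM in A0310, 0 to 2.95 CPM in A0311 and 0 to 0.913 CPM in A0312. The hashtag differences of Clec4e therefore stood within sub-clusters too. Clec4a2 averaged 384, 380, 394 and 392 CPM, and Clec4a3 averaged 140, 125, 125 and 126 CPM.

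**Figure D5:**
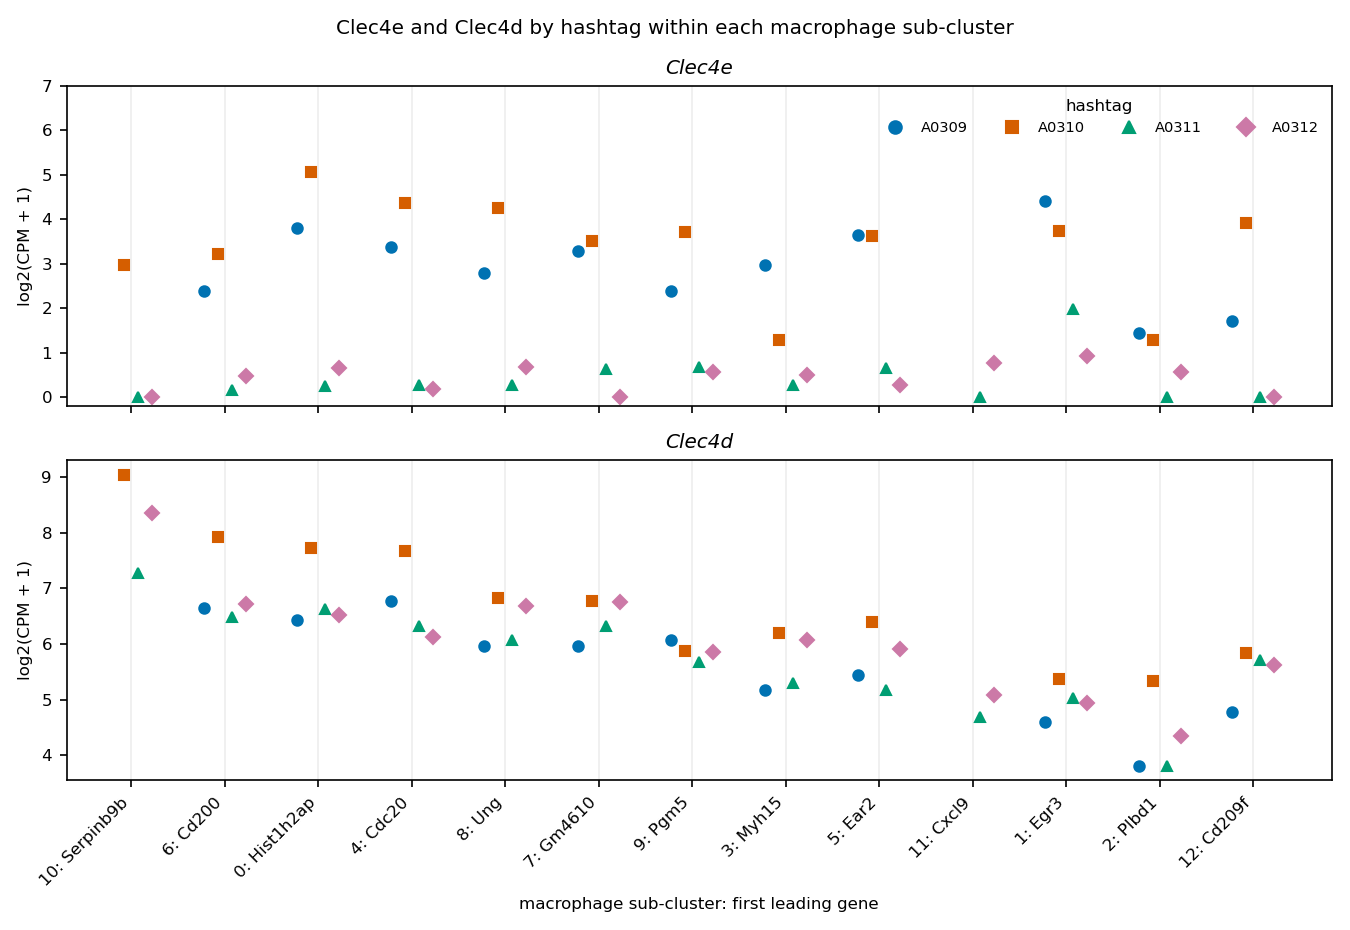
Level of Clec4e and of Clec4d, as log2(CPM + 1), in each macrophage sub-cluster, with 1 point per hashtag holding at least 20 cells of it. Clec4d of A0310 is the highest point in 10 of the 11 sub-clusters with all 4 hashtags, and Clec4e of A0311 and of A0312 stays at or below 2.95 CPM in them.

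Shares of cells with a count were taken after thinning every cell to 10000 counts, which left out 267 macrophage-like cells and 216 endothelial-like cells of lower depth. Clec4a2 was found in 87.1% of thinned macrophage-like cells, Clec7a in 74.9%, Clec4a3 in 52.3%, Clec4a1 in 35.9%, Clec4d in 28.6%, Clec4n in 2.47% and Clec4e in 2.31%. Before thinning, at a median of 41445 counts, Clec4d was found in 44.5% and Clec4e in 4.54%. Endothelial-like cells, a lineage not known for these receptors, gave a background of 11.1% for Clec4a2, 7.56% for Clec7a, 3.34% for Clec4a3, 1.93% for Clec4d, 1.58% for Clec4a1, 0.351% for Clec4e and none of 569 cells for Clec4n (up to 0.646%). The median depth before thinning of the cells used was 42695 counts in macrophage-like and 15652 in endothelial-like cells. Monocyte-like cells had counts of Clec4e in 14.1%, of Clec4n in 15.2% and of Clec4a1 in 86.9%. By hashtag, Clec4e was found in 4.86%, 6.06%, 0.368% and 0.349% of macrophage-like cells, the last 2 of which are at the endothelial background, and in 19.0%, 23.4%, 2.27% and 0% (up to 2.74%) of the Ccr2-led cells.

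Few cells carried most of the counts of the rarer receptors. Clec4e had 2983 counts in 533 cells, and 62.4% of them were in the 1% of cells with the most. Clec4n was as uneven, with 57.1%, and Clec4d less so, with 27.6% of its 37703 counts. The Poisson intervals do not cover this clumping and are too narrow as a measure of differences between samples of cells. A thinned monocyte-like cell had a median of 4 of the 7 receptors, macrophage-like and Ccr2-led cells had 3, dendritic-cell-like cells 1 and fibroblast-like and endothelial-like cells 0. None of the 7 was found in 1.82% of macrophage-like cells and 77.0% of endothelial-like cells.

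Within macrophage-like cells the receptors met in patterns like those of the sub-clusters. Clec4a3 was found in 71.8% of cells with a count of Clec4a1 and in 41.4% of those without. Clec4a1 was found in 72.5% of cells with Clec4n and in 34.9% of those without. Clec4a1 was found in 25.9% of cells with Clec4d and in 39.8% of those without. Each of these 3 differences had the same direction in every hashtag. For Clec4d, the share was 37.3% in cells with Clec4e and 28.3% in cells without in the pool, but by hashtag it was 25.9% and 25.6% in A0309, 44.6% and 38.4% in A0310, 14.3% and 24.4% in A0311, and 55.6% and 26.9% in A0312. The cells with Clec4e numbered 58, 92, 7 and 9. These shares describe cells of 1 library and were not tested.

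Of the 14 genes that carry or restrain the signal of these receptors, 9 were called higher in macrophage-like over fibroblast-like cells and none lower, where 12.8% and 17.6% of all genes were called. Fcer1g, the adaptor of Mincle, had a log2 ratio of 4.92, the phosphatase Ptpn6 4.63, the exchange factor Vav1 3.98 and the lipid phosphatase Inpp5d 3.90, while Hif1a was not called at -0.92. In monocyte-like over macrophage-like cells 4 were called higher, beside 5.82% of all genes: Plcg2 (2.31), Nfkb1 (1.62), Malt1 (1.46) and Ptpn6 (1.26). Fcer1g itself was not, at 0.55, with 1690 CPM in monocyte-like and 1160 CPM in macrophage-like cells. In dendritic-cell-like cells Plcg2 (1.64) and Nfkb1 (1.51) were called higher than in macrophage-like cells, beside 7.28% of all genes, and Fcer1g was uncalled at -1.10. None of the 14 was called between the Cd200-led and the Cd209f-led macrophages, where 3 of the receptors were, and Malt1 alone (1.24) was called in the Ccr2-led cluster. The median log2 ratio of the 14 was 2.51, 0.83, 0.28, -0.32 and 0.32 in these 5 comparisons, beside -0.02, 0.18, 0.14, -0.22 and -0.01 over all genes considered.

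Of 21 other C-type lectins measured, 8 met the minimum in macrophage-like or fibroblast-like cells, with 5 called higher and 3 lower in macrophage-like cells, where 12.8% and 17.6% of all genes were. Clec12a had a log2 ratio of 5.05 and Clec4b1, the neighbour of Clec4a2, one of 4.56, whereas the stromal lectins Clec3b (-6.76) and Clec11a (-5.17) were lower. Of 11 considered in monocyte-like over macrophage-like cells, Cd69 (3.92) and Clec2i (3.08) were called higher, where 5.82% of all genes were, and Clec12a, at -1.04, was not called. Of 12 considered in dendritic-cell-like over macrophage-like cells, 6 were called higher, where 7.28% of all genes were, led by Clec9a (6.94), which also served to name that class, and by Klrd1 (6.58), Klrk1 (6.04) and Cd69 (3.71). Between the Cd200-led and Cd209f-led macrophages, Mgl2 (-6.40), Clec10a (-4.92) and Clec5a (-2.32) were called lower, as were 6.32% of all genes, and Clec12a (0.38) was not called. The Ccr2-led cluster had more Mgl2 (2.50), Cd69 (2.19) and Olr1 (1.65) than macrophage-like cells, where 1.5% of all genes were called higher. Clec4b1 shares 8.68% of its 50-base stretches with Clec4a2, so a part of the counts of these genes may be shared, which was not tested.

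Of 12 genes known to be induced downstream of Mincle and its relatives, 10 were considered in macrophage-like over fibroblast-like cells. There 4 were called higher, among them Cxcl2 (6.24), Tnf (4.77) and Ccl3 (4.34), and 3 lower, led by Il6 (-6.12), with Cxcl1 (-0.87) uncalled, beside 12.8% and 17.6% of all genes. In monocyte-like over macrophage-like cells Il1b was higher (5.20) while Cxcl1 (-4.10) and Cxcl2 (-1.92) were lower, beside 5.82% of all genes called higher and 6.57% lower, and Ccl3 (1.86) was not called. In dendritic-cell-like cells Il1b (4.90) and Egr3 (4.09) were higher than in macrophage-like cells, and 4 genes were lower, led by Cxcl2 (-3.36) and Cxcl1 (-2.90), beside 7.28% and 5.99% of all genes. The Cd200-led macrophages had less Egr3 (-2.77), Il1b (-2.26) and Ccl3 (-1.86) than the Cd209f-led cells, where 6.32% of all genes were called lower, and Cxcl2 (0.39) was not called. Il1b (3.31), Egr3 (1.73) and Ptgs2 (1.16) were called higher in the Ccr2-led cluster than in macrophage-like cells, as were 1.5% of all genes. Which of these 12 follow Clec4e in any cell was not tested.

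The genes whose levels ran most closely beside each receptor were taken over 21 classes and macrophage sub-clusters, by Pearson's r of log2(CPM + 1), among 15545 genes. For Clec4e these were Klra2 (0.84), E230016K23Rik (0.83) and Arg2 (0.80), and for Clec4n Pilrb1, Adgre4 (both 0.89) and Pilrb2 (0.88). Clec4d ran beside Ftl1-ps2 (0.93), Il1rn (0.93) and Ccl9 (0.92). For Clec4a1 they were its neighbour Clec4a3 (0.97), Lst1 (0.97) and Ptprj (0.94), and for Clec4a3 Lyz1 (0.98), Clec4a1 (0.97) and Clec7a (0.96). Clec4a2 ran beside Slc16a7 (0.98), Igsf6 (0.97) and Lrrc25 (0.97), and Clec7a beside Cybb (0.99), Pirb (0.99) and Lyz1 (0.98). The likeness of Clec4e to its nearest gene was the weakest of the 7. All 21 units come from 1 library, so the values describe it and carry no test.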

How the data were processed

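A pooled transcript library and its hashtag library were deposited by the authors as whole-number counts per gene and cell and as tag counts per hashtag. The submitters' processing notes list Bowtie2 2.4.2, cutadapt 3.4, GRCm38, R 4.1.2 and R 3.6.3, with no role for each. The sources do not say if counts are reads or molecules. In the deposited counts, 68 genes have their low values set to 0, none of them among the 7 receptors.

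The table holds 651658017 counts in 15741 cells, with 0 barcodes repeated. A cell was given a hashtag where it had at least 10 tag counts, at least 75% of them from 1 hashtag, which assigned 11436 cells (72.7%), called 2462 multiplets and left 1843 unassigned. Cells needed 200 genes and at most 25% mitochondrial counts, which 184 of the 15741 cells failed, assigned or not. The 11281 cells kept were 2250, 2250, 2809 and 3972 for A0309, A0310, A0311 and A0312, with medians of 32916, 37406.5, 35785 and 34589.5 counts. Doublets within a hashtag were not removed.

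Clusters (scanpy 1.11.5, leidenalg 0.10.2, 2000 variable genes, 30 components, 20 neighbours, resolution 1.0, seed 1) were made without the 7 receptors and the listed genes. A name needed 3 markers found in 25% of cells, each up by 1 on the log2 scale. Mixed sub-clusters, in which at least 3 markers of an unrelated class were found in this way, were left out. For fibroblast-like cells, macrophages were among the unrelated classes. This removed 451 of 1098 fibroblast-like, 245 of 320 mural and 66 of 851 endothelial-like cells, and no macrophage-like cells. CPM was the counts of a gene summed over a class, per 1000000 of all its counts, with exact Poisson intervals, and shares had exact Clopper-Pearson intervals. The intervals cover counting error only. Ratios used a pseudocount of 1. No p-value was computed, and the code was tested on simulated data. The text names the 7 receptors, up to 4 called genes and the most abundant uncalled gene of each list, and the 3 genes most like each receptor. The receptors, lists and rules were chosen with earlier results of these data known. Alternatives were other hashtag calls, pseudocounts, resolutions and depths, equal weights for cells, mixed sub-clusters kept, cells of highest counts left out, and each hashtag left out.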

Additional observations from a re-analysis of the deposited data

How the results depend on the processing

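No paired analysis was possible because the cells form 1 library whose hashtags carry no genotype. Of 742 levels and shares recomputed under the alternatives, 282 moved and 460 stayed the same. Of 207 counts, such as the number of receptors called, 16 moved and 191 stayed the same. Of 434 log2 ratios of the receptors, 416 stayed as they were, called or uncalled, 14 gained a call, 4 lost one and no call reversed. A ratio that stayed uncalled was taken as the same even where its sign changed. Those lost were in monocyte-like over macrophage-like cells: Clec4a3 at resolution 0.5 (0.95), with cells weighted equally (1.39) and without the 5% of cells with most counts (1.46), and Clec4n with cells weighted equally (2.56). Equal weights for cells so left 1 receptor called higher there, against 3. At resolution 0.5, 1 was called lower (Clec4d, -3.37), against 0, and 1 was called higher in the Cd200-led macrophages (Clec4d, 2.0), against 0. With the hashtags the authors wrote into the cell names, 5 receptors were called lower in dendritic-cell-like cells, against 2, and 3 were highest in an MHC class II sub-cluster, against 6, and there was no monocyte-like class. Leaving out a hashtag moved the receptors called higher in the Cd200-led cells (0 to 1) and those called higher or lower in the Ccr2-led cluster (0 to 1 each), and resolution 2.0 gave 1 called higher in the Ccr2-led cluster. In the lists, 6 genes called in the Cd200-led cells became 3 with the authors' hashtags, 13 at resolution 0.5 and 3 at resolution 2.0. The 7 list genes called in the Ccr2-led cluster became 2 at a pseudocount of 5, 4 with cells weighted equally and 4 without the 5% of cells with most counts. The cause was not tested. Resolution 0.5 and the authors' hashtags gave no Ccr2-led cluster. A0310 had the highest level of 5 receptors in macrophage-like cells under every alternative run. For Clec4a1, 1 of the 5, the main intervals overlap, at 72.4 CPM (70.6 to 74.3) in A0310 and 68.6 CPM (66.6 to 70.7) in A0309. Depth limits Clec4e and Clec4n: in macrophage-like cells of A0311 and A0312, Clec4e rests on 65 and 60 counts, and in monocyte-like cells on 0 and 1.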
